A study of Mus musculus with 12 samples.

Results

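The genes described here are 10 members of the MHC class I antigen presentation pathway. They are the heavy chains H2-K1 and H2-D1, the light chain B2m, the peptide transporter subunits Tap1 and Tap2, tapasin (Tapbp), the immunoproteasome subunits Psmb8, Psmb9 and Psmb10, and the transactivator Nlrc5. They were taken by symbol from a table of 23479 mouse genes, all 10 were present, and all 10 were among the 11122 genes with a mean normalized read count of at least 10 that entered the tests. Normalized counts are the reads of a gene divided by 1 size factor per library. Total RNA was sequenced from sorted spleen cells of C57BL/6 mice carrying B16 tumours, a transplantable melanoma. The cells were monocytic (M-MDSC) and polymorphonuclear (PMN-MDSC) myeloid-derived suppressor cells, which are myeloid cells arrested before full maturity that dampen T cell responses in cancer. The groups were M-MDSC LD, M-MDSC Ctrl, PMN-MDSC LD and PMN-MDSC Ctrl, with 3 libraries each, numbered 1 to 3. LD mice received cyclophosphamide and fludarabine, a chemotherapy pair that depletes lymphocytes, once tumours exceeded 25 mm2, and Ctrl mice were untreated. Spleens were taken 7 days after treatment, so all groups came from tumour-bearing animals. No age is stated, and the labels do not say whether libraries of a group came from separate mice, so p-values measure only the spread between these libraries, which may be technical.

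Class I molecules show peptides from inside the cell to CD8 T cells and are ligands for inhibitory receptors of natural killer and myeloid cells. Proteasomes cut proteins into peptides, and the TAP transporter carries these into the endoplasmic reticulum, where tapasin helps to load them onto a heavy chain paired with B2m. Under interferon gamma, the catalytic subunits Psmb8, Psmb9 and Psmb10 replace the constitutive Psmb5, Psmb6 and Psmb7 in newly built proteasomes. Nlrc5 is the class I counterpart of Ciita, the class II transactivator, and works through a promoter module (SXY) bound by RFX factors, CREB and ATF proteins at the X boxes, and NF-Y at the Y box. Interferons and NF-kappaB act on class I promoters through neighbouring elements.

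Promoters of the members carry elements of this wiring, and those of H2-K1, H2-D1 and B2m are printed because they hold the X2 and Y boxes of the module in the same geometry. The RefSeq table of promoters (GRCm38.p6, the same assembly as mm10) held 8 of the 10 members, without Tap2 and Nlrc5. The stretches below are the 200 bases before the annotated start, 5′ to 3′ on the gene's strand. They are chr17:34000334-34000533 on the minus strand for H2-K1 (its second RefSeq start), chr17:35262894-35263093 on the plus strand for H2-D1 and chr2:122147487-122147686 on the plus strand for B2m. Capitals mark, in order, the NF-kappaB element of enhancer A (GGGATTCCC), an interferon-stimulated response element (ISRE, as GAANNGAAA inverted in H2-K1 and H2-D1 and as the consensus of GAAA, any 2 bases and GAAA in B2m), the X2 box (TGACG) and the Y box (CCAAT, or ATTGG when inverted).
H2-K1: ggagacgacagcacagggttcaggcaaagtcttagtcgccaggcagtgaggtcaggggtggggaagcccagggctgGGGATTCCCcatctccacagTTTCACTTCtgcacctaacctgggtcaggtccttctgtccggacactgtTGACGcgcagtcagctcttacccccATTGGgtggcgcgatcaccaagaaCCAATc
H2-D1: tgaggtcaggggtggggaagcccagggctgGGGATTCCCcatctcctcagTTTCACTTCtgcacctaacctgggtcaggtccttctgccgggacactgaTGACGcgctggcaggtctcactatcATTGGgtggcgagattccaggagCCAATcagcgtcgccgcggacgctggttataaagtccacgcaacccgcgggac
B2m: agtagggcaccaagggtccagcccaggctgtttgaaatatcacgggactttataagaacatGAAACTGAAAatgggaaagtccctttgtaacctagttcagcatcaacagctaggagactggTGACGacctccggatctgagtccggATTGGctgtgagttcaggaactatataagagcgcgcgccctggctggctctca

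H2-K1 and H2-D1 carried all 4 elements at equal spacing, counted from first base to first base. The ISRE-like element (GAANNGAAA) began 20 bases after the NF-kappaB element, the X2 box 49 bases after that, and the inverted Y box another 25 bases on. B2m carried the X2 box and the inverted Y box at the same spacing of 25 bases, with the ISRE consensus upstream of them and no match to the GGGATTCCC letters. The consensus letters were searched after the sequences were seen, since the ISRE-like letters cannot match them. Across 32851 RefSeq mouse promoter windows of 300 bases, read on both strands, the NF-kappaB letters occurred in 0.353%, the ISRE-like letters in 7.52%, the ISRE consensus in 3.44%, the X2 letters in 20.8% and the Y letters in 37.4%. Searched on the gene's strand alone, the X2 box followed by an inverted Y box at 25 bases occurred in 19 windows (0.0578%) of 16 genes, among them H2-K1, H2-D1, B2m and H2-M3. That spacing was read from the members, so their own matches carry no weight. Tap1 and Psmb9 had the X2 and Y letters at another spacing. Their windows overlap (chr17:34187306-34187605 and chr17:34187281-34187580), and these are the same letters read on opposite strands. Tapbp had only the Y letters, and Psmb8 had the GAS letters (TTCNNNGAA, an interferon gamma activated site), which occurred in 8.3% of windows. Psmb10 had none of the 6 motifs in its window. A match says only that the letters are present.

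**Figure D1:**
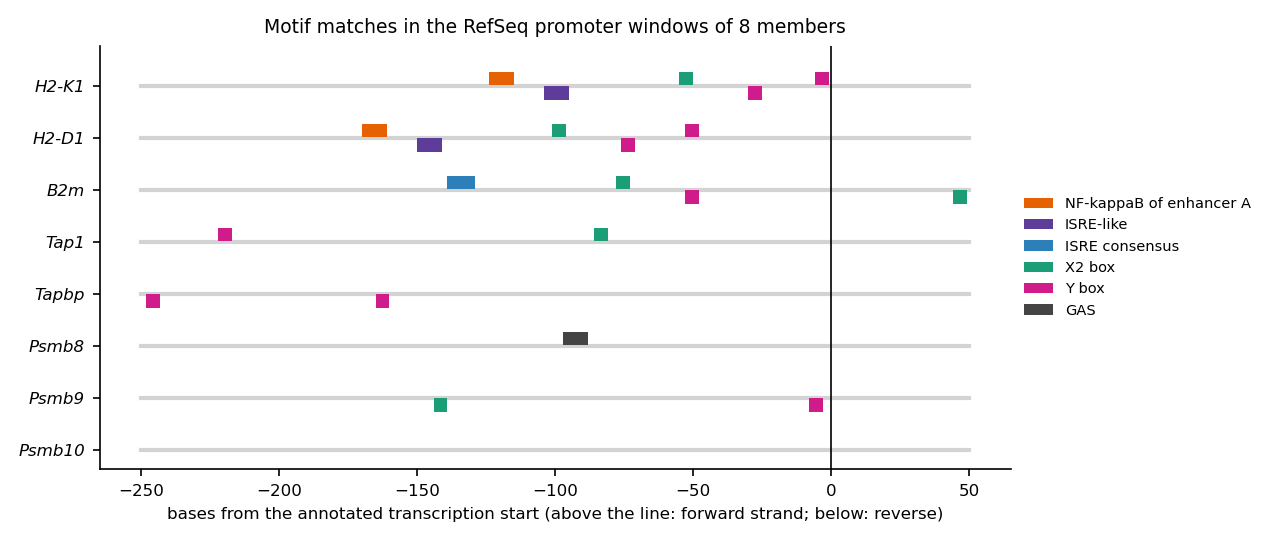
Positions of the 6 motifs in the RefSeq promoter windows of 8 members, in bases from the annotated start (vertical line), from 250 before to 50 after it. Marks above a line are on the gene's strand and marks below it are inverted. H2-K1 and H2-D1 share 1 order and spacing of 4 elements, shifted against the start, and B2m shares its downstream pair, with the ISRE consensus upstream.

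In GENCODE M21 (GRCm38), the members lie on chromosomes 17, 2 and 8. H2-K1 (chromosome 17, 33996017 to 34000347), Tapbp (33915899 to 33929292), Psmb9 (34181987 to 34187764), Tap1 (34187553 to 34197225), Psmb8 (34197721 to 34201454), Tap2 (34203527 to 34216321) and H2-D1 (35262730 to 35267499) are in the MHC on chromosome 17. B2m is on chromosome 2 (122147686 to 122153083), and Psmb10 (105935735 to 105938444) and Nlrc5 (94434356 to 94527272) are on chromosome 8. Psmb9 and Tap1 run in opposite directions and their annotated exons overlap by 212 bases. Exons of Tap2 and Psmb8 also overlap antisense genes, by 683 and 186 bases, those of Tapbp by 682 bases and those of Nlrc5 by 43 bases. Whether counting used strand is not given in the sources used here, so reads in those stretches cannot be assigned with certainty. H2-K1 and H2-D1 belong to a family of close copies. Of the 50-base windows of the main transcript, 8.79% in H2-K1 and 14.3% in H2-D1 occurred exactly in another gene, against 0% in B2m, Psmb8, Psmb9, Psmb10 and Nlrc5.

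The libraries held 8906045 to 16242926 reads assigned to genes. Summed levels of 10 monocyte markers were 76854 to 93771.2 in M-MDSC LD and 109246.9 to 129215.3 in M-MDSC Ctrl, against 8439 to 10888.1 in PMN-MDSC LD and 10250.1 to 12994.1 in PMN-MDSC Ctrl. Those of 9 neutrophil markers were 11088.5 to 44629.8 in M-MDSC LD and 6418.3 to 7321.3 in M-MDSC Ctrl, against 554933.6 to 622968.5 in PMN-MDSC LD and 403232.4 to 438436.2 in PMN-MDSC Ctrl. The markers therefore fit the labels, with more neutrophil marker RNA in M-MDSC LD than in M-MDSC Ctrl. LD libraries numbered 1 held the most progenitor and cell division RNA of their groups. Of 8 granulocyte-monocyte progenitor markers, 6 rose after LD in M-MDSC and 3 in PMN-MDSC, with summed levels of 1704.2 to 7862.8 in M-MDSC LD and 261.2 to 322 in M-MDSC Ctrl, and of 325.1 to 1075.3 in PMN-MDSC LD and 225 to 287.3 in PMN-MDSC Ctrl. In bulk RNA, a change in the share of cells and a change in RNA per cell cannot be told apart.

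B2m and H2-K1 had the most RNA per kilobase of the 10 members in every group. On the scale of mean normalized count per kilobase of the main GENCODE transcript, B2m stood at 14700 ± 470 in M-MDSC LD, 11500 ± 2120 in M-MDSC Ctrl, 22700 ± 509 in PMN-MDSC LD and 15400 ± 2770 in PMN-MDSC Ctrl (SD, n = 3 each). H2-K1 followed at 6740 ± 283, 4090 ± 406, 7250 ± 833 and 5640 ± 617 in those groups. H2-D1, the other classical heavy chain, was far below H2-K1 in M-MDSC, at 1290 ± 38.3 in M-MDSC LD and 1040 ± 136 in M-MDSC Ctrl, and closer to it in PMN-MDSC, at 2920 ± 142 in LD and 2560 ± 471 in Ctrl. In M-MDSC LD, H2-D1, Psmb8 (1290 ± 150) and Tapbp (1280 ± 188) did not differ beyond their spread, and neither did Tapbp (1160 ± 130), Psmb8 (1080 ± 81.1) and H2-D1 in M-MDSC Ctrl. The lowest places were held by Psmb9 (329 ± 42.5), Nlrc5 (319 ± 16.8) and Tap2 (253 ± 22.9) in M-MDSC LD and by Nlrc5 (147 ± 7.75) and Psmb10 (133 ± 25.4) in PMN-MDSC LD, where each neighbouring pair lay within its spread except Tap2 in M-MDSC. In PMN-MDSC Ctrl, Nlrc5 (161 ± 20.5) lay above Psmb10 (85.3 ± 15.2). With lengths over all annotated exons the first 2 places were the same and the order below them changed, so that Psmb9 took the lowest place in M-MDSC LD (121, with Tap2 at 231) and in M-MDSC Ctrl (92.7, with Tap2 at 202). The 10 members together took 0.424 to 0.439% of the reads in M-MDSC LD and 0.291 to 0.345% in M-MDSC Ctrl, and 0.326 to 0.377% in PMN-MDSC LD and 0.237 to 0.305% in PMN-MDSC Ctrl, with no overlap of LD and Ctrl in either population.

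**Figure D2:**
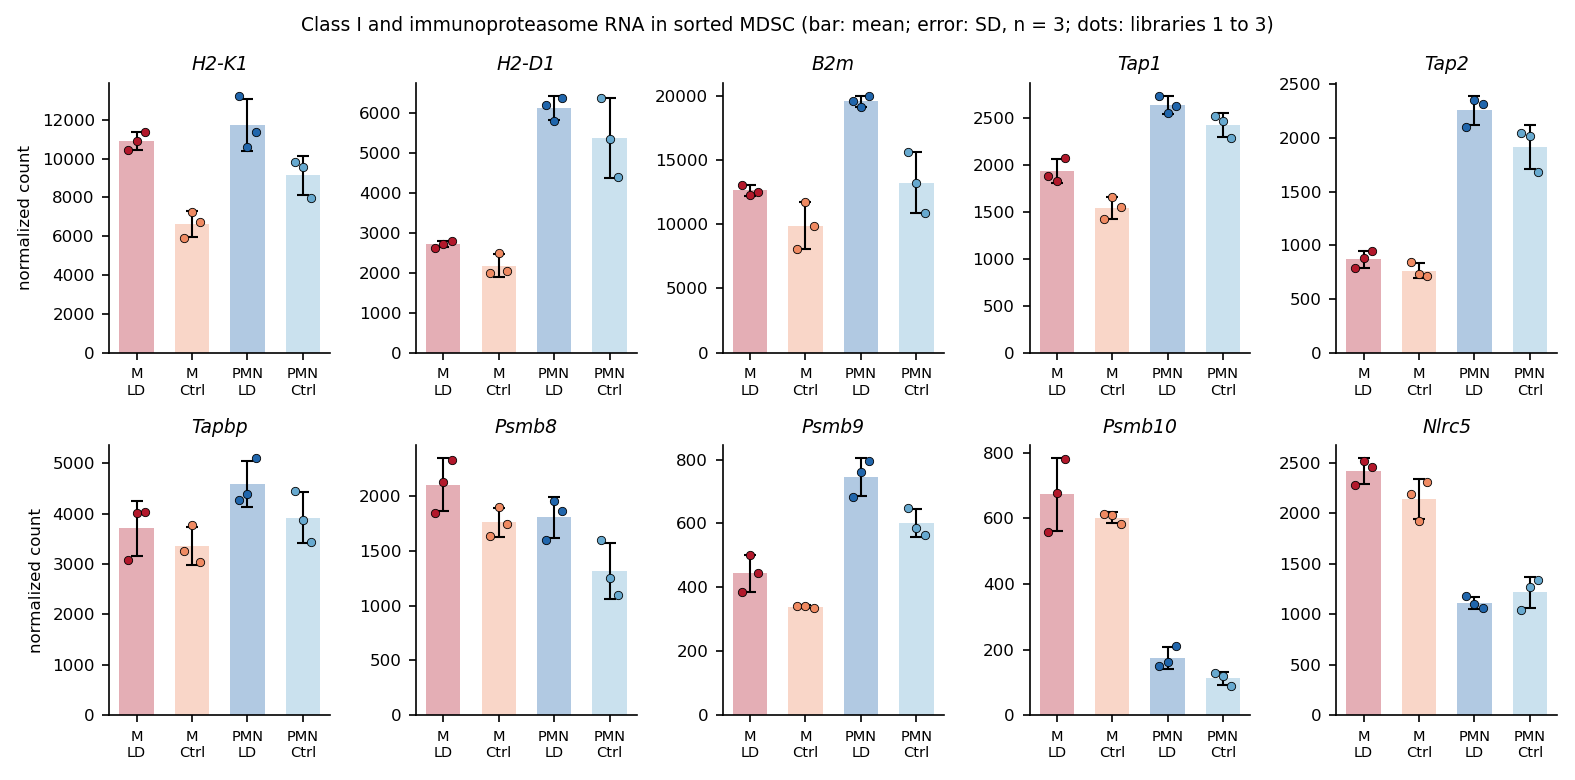
Normalized count of each member in the 4 groups (M: M-MDSC, PMN: PMN-MDSC), with bars at the mean, error bars of 1 SD (n = 3) and a point for each library. Every LD library of H2-K1 and B2m lies above every Ctrl library in both populations, though B2m did not pass in M-MDSC. Psmb10 and Nlrc5 differ more between the populations than with LD, where Psmb10 passed in PMN-MDSC.

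What LD did to class I RNA was asked first in M-MDSC. H2-K1 rose 1.65-fold, and none of the other 9 members passed the test, though all 10 differences were positive. The members' median log2 difference was 0.29, beside -0.04 over all genes tested. Changes are log2 differences between group means of log2(normalized count + 1), with their SE, from limma with Benjamini-Hochberg adjustment over all 11122 genes and a threshold of 0.05, and a fold is that difference turned back to a ratio. In this comparison 3.01% of all genes passed, 2.54% as higher. With 1 of 10, the members' count is a single gene.

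H2-K1 read 10459.1, 10878.8 and 11375.6 normalized counts in M-MDSC LD, against 5915.7, 7220.5 and 6712.6 in M-MDSC Ctrl. Every LD library was above every Ctrl library, and the LD libraries lay closer together. The log2 difference was 0.72 ± 0.11 (limma adjusted p = 0.00239), and H2-K1 passed in each of the 24 alternatives run, with adjusted p of 2.7e-07 to 0.018. Without both LD libraries numbered 1, which held the most progenitor and cell division RNA, it was 0.75 (adjusted p = 0.00104). H2-D1 read 2633.3, 2730.7 and 2792.9 in M-MDSC LD, against 1984.4, 2508.9 and 2046.4 in M-MDSC Ctrl. Its groups did not overlap either, but the difference of 0.33 ± 0.12 did not pass (limma adjusted p = 0.216). B2m read 13072.1, 12285.7 and 12513.5 in M-MDSC LD, against 8068.1, 11714.9 and 9879.9 in M-MDSC Ctrl. The Ctrl libraries were spread widely, and the difference of 0.37 ± 0.14 did not pass (limma adjusted p = 0.22).

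Tap1, which forms the transporter with Tap2, read 1884.2, 1833.2 and 2076.7 in M-MDSC LD, against 1424.1, 1658.3 and 1550.5 in M-MDSC Ctrl. Its groups did not overlap, but its difference of 0.32 ± 0.09 narrowly missed the threshold (limma adjusted p = 0.0592). It passed by edgeR (adjusted p = 0.0486) and DESeq2 (0.0152) on the recovered reads, without PMN-MDSC LD library 1 (0.0418) and with scaling to total reads (0.0391), and its adjusted p ran from 0.0152 to 0.258 over 24 alternatives. Psmb9, the immunoproteasome subunit that replaces Psmb6, read 386.8, 501.8 and 444.3 in M-MDSC LD, against 343.1, 340.6 and 334.3 in M-MDSC Ctrl (0.38 ± 0.12, limma adjusted p = 0.113). All 3 LD libraries were higher. It passed without both LD libraries numbered 1 (0.48, adjusted p = 0.0339) and with scaling to total reads (0.43, 0.0458). The remaining members, Tap2, Tapbp, Psmb8, Psmb10 and Nlrc5, overlapped between LD and Ctrl, with log2 differences of 0.14 to 0.25 and limma adjusted p of 0.465 to 0.866. In all, 5 members lay wholly higher in LD (H2-K1, H2-D1, B2m, Tap1 and Psmb9), as did 10.6% of all genes tested, and no member lay wholly lower, against 12.4% of genes.

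The same question was asked in PMN-MDSC. B2m rose 1.49-fold, Psmb10 1.55-fold, Psmb8 1.39-fold and H2-K1 1.29-fold, so that 4 of 10 members rose and none fell. Of all genes, 15.7% passed here, 7.17% as higher. The members' median difference was 0.28, beside -0.05 over all genes, and 9 of 10 were positive, the exception being Nlrc5. Groups did not overlap for 7 members, all higher in LD (H2-K1, B2m, Tap1, Tap2, Psmb8, Psmb9 and Psmb10), against 14.1% of all genes wholly higher and 17.8% wholly lower.

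B2m read 19547.1, 19095 and 19970.1 in PMN-MDSC LD, against 15598.4, 13201.5 and 10835.1 in PMN-MDSC Ctrl. The LD libraries agreed within a narrow range above all Ctrl libraries (0.58 ± 0.14, limma adjusted p = 0.013). The call was lost in 1 of 24 alternatives, without PMN-MDSC Ctrl library 3 (0.44, adjusted p = 0.0679). H2-K1 read 13225.3, 10606.5 and 11358.6 in PMN-MDSC LD, against 9817.5, 9579.4 and 7981.1 in PMN-MDSC Ctrl. Its difference of 0.36 ± 0.11 was near the threshold (limma adjusted p = 0.0415), and the call was lost in 14 of 24 alternatives. It was lost by edgeR (0.33, adjusted p = 0.071) and with a replicate block (0.36, 0.0591). It was also lost without PMN-MDSC LD library 1 (0.27, 0.101) or library 3 (0.0728), PMN-MDSC Ctrl library 2 (0.0716) or library 3 (0.27, 0.178), M-MDSC LD library 2 (0.0536) or library 3 (0.0538), or M-MDSC Ctrl library 3 (0.0606). H2-D1 read 6208.2, 5802.6 and 6384.7 in PMN-MDSC LD, against 6376.7, 5351.8 and 4396 in PMN-MDSC Ctrl. Those groups overlapped (0.21, limma adjusted p = 0.275).

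Of the immunoproteasome subunits, Psmb8, which replaces Psmb5, read 1598.7, 1954.8 and 1867.9 in PMN-MDSC LD, against 1594.4, 1247.2 and 1099.8 in PMN-MDSC Ctrl. The lowest LD library was barely above the highest Ctrl library, and the difference was 0.47 ± 0.13 (limma adjusted p = 0.028). Psmb10, which replaces Psmb7, read 148.8, 161.8 and 211.7 in PMN-MDSC LD, against 127.5, 118.7 and 89.4 in PMN-MDSC Ctrl, also without overlap (0.63 ± 0.18, limma adjusted p = 0.0287). Psmb9 read 681.7, 760.4 and 796.5 in PMN-MDSC LD, against 649.8, 587.1 and 565.1 in PMN-MDSC Ctrl. It did not overlap but did not pass (0.31 ± 0.12, limma adjusted p = 0.0907). Single libraries decided the calls of Psmb8 and Psmb10. Without PMN-MDSC Ctrl library 3 the differences were 0.35 (adjusted p = 0.131) and 0.48 (0.124), without Ctrl library 2 they were 0.44 (0.0875) and 0.68 (0.0519), and without LD library 3 they were 0.45 (0.079) and 0.48 (0.105). Psmb8 was also lost without LD library 2 (0.41, 0.0882). Leaving out PMN-MDSC Ctrl library 3 left none of the 10 members past the threshold. That library had the lowest level of Ctrl for all members but Nlrc5, for which it had the highest, and it held the fewest reads of all libraries (8906045).

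Tap1 and Tap2 were higher in every PMN-MDSC LD library than in Ctrl by small margins that did not pass. Tap1 read 2734.9, 2547.6 and 2627.9 in LD, against 2522.7, 2471.5 and 2282.6 in Ctrl (0.12, limma adjusted p = 0.367), and Tap2 read 2104.6, 2353.4 and 2315.2 in LD, against 2046.3, 2015.4 and 1679.2 in Ctrl (0.24 ± 0.11, limma adjusted p = 0.139). Tapbp overlapped (0.23, limma adjusted p = 0.242). Nlrc5 read 1176.7, 1106.1 and 1060.1 in PMN-MDSC LD, against 1042.5, 1273.6 and 1337.6 in PMN-MDSC Ctrl. The difference was -0.12 ± 0.11 (limma adjusted p = 0.469), so the transactivator gave no detectable change while 4 of the other members rose.

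**Figure D3:**
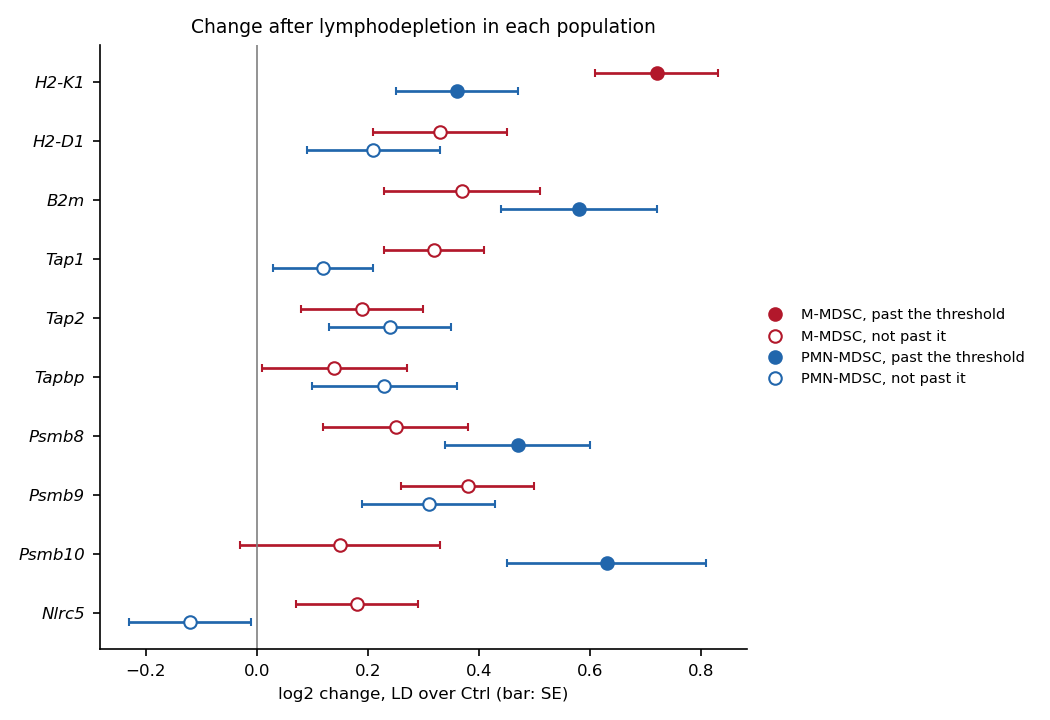
Log2 change of each member, LD over Ctrl, in M-MDSC (red) and PMN-MDSC (blue), with bars of 1 SE from limma; filled points passed the adjusted p threshold of 0.05. All changes lie right of 0 except Nlrc5 in PMN-MDSC (-0.12), and H2-K1 in M-MDSC (0.72) is the farthest from 0.

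Averaged over both populations, H2-K1 (0.54 ± 0.08, limma adjusted p = 7.4e-04), B2m (0.47 ± 0.1, 0.00652), Psmb9 (0.35 ± 0.08, 0.0149), Psmb8 (0.36 ± 0.09, 0.0204) and Tap1 (0.22 ± 0.06, 0.0264) were higher in LD. These 5 of 10 members compare with 14.2% of all genes, 7.36% as higher and 6.86% as lower. The members' median was 0.31, beside -0.04 over all genes. H2-K1, B2m and Psmb9 passed in each of 23 alternatives, whereas Tap1 was lost in 6 and Psmb8 in 3. Tap1 was lost without M-MDSC LD library 3 (limma adjusted p = 0.0684), M-MDSC Ctrl library 1 (0.0783), M-MDSC Ctrl library 3 (0.0592) or PMN-MDSC Ctrl library 3 (0.066), without a minimum level (0.051) and with upper-quartile scaling (0.0505). Psmb8 was lost without M-MDSC LD library 3 (0.054), M-MDSC Ctrl library 1 (0.0573) or PMN-MDSC Ctrl library 3 (0.0547). Psmb10 (0.39 ± 0.13, limma adjusted p = 0.0546) and H2-D1 (0.27, 0.0547) missed the threshold narrowly and passed in 8 and 5 alternatives. Psmb10 passed without M-MDSC LD library 1 (0.0375), PMN-MDSC LD library 1 (0.0289) or PMN-MDSC Ctrl library 1 (0.0445), and H2-D1 without M-MDSC Ctrl library 2 (0.0272) or PMN-MDSC Ctrl library 1 (0.0177). Tap2 (0.22, 0.0701), Tapbp (0.18, 0.199) and Nlrc5 (0.03 ± 0.07, 0.838) did not pass, though Tap2 did without either LD library numbered 1 (0.0466 each). Without both of them, 8 of 10 members passed, all but H2-D1 and Nlrc5. The share of all genes that passed there is not given, so a rise in all calls cannot be told apart.

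No member changed differently in the 2 populations by the test of the difference itself. Of the 10, 0 passed by limma, edgeR or DESeq2, beside 2.25% of all genes by limma, 1.18% as higher in M-MDSC and 1.07% as lower. Before adjustment, 1 member lay under 0.05 by limma (H2-K1), 2 by edgeR and 1 by DESeq2. The M-MDSC change minus the PMN-MDSC change was 0.36 ± 0.16 for H2-K1 (limma adjusted p = 0.243), -0.49 ± 0.25 for Psmb10 (limma adjusted p = 0.338), 0.3 ± 0.15 for Nlrc5 (limma adjusted p = 0.309) and -0.21 ± 0.2 for B2m (limma adjusted p = 0.616). A member that passed in 1 population alone is therefore not shown to differ between them.

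Ratios within a library do not depend on its size factor. H2-K1 over H2-D1, as normalized counts, was 3.97, 3.98 and 4.07 in M-MDSC LD, against 2.98, 2.88 and 3.28 in M-MDSC Ctrl, and 2.13, 1.83 and 1.78 in PMN-MDSC LD, against 1.54, 1.79 and 1.82 in PMN-MDSC Ctrl. In M-MDSC the LD ratios lay above all Ctrl ratios, and in PMN-MDSC the groups overlapped. Over both populations the log2 ratio was 0.28 higher in LD (two-sided exact permutation test within population, 400 relabellings, p = 0.015). Within M-MDSC the difference was 0.4 (exact p = 0.1, the smallest that 3 against 3 allows) and within PMN-MDSC 0.16 (exact p = 0.3), and the difference between these changes was 0.24 (exact permutation p = 0.3). With a replicate block the change over both populations did not pass (0.28, exact permutation p = 0.0625). Since both heavy chains share sequence with other class I genes, part of either count may belong to a relative.

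The pairs of immunoproteasome and constitutive subunits, tested in the same way with p adjusted over the 3 pairs, moved unequally. Psmb10 over Psmb7 was 2.15 ± 0.31 in M-MDSC LD and 1.76 ± 0.145 in M-MDSC Ctrl, and 0.723 ± 0.0659 in PMN-MDSC LD and 0.502 ± 0.0636 in PMN-MDSC Ctrl (SD, n = 3 each). Over both populations its log2 ratio was 0.4 higher in LD (exact permutation adjusted p = 0.03, or 0.0938 with a replicate block), with 0.28 within M-MDSC (exact p = 0.2) and 0.53 within PMN-MDSC (exact p = 0.1). Psmb9 over Psmb6 was higher in LD than in Ctrl in M-MDSC and lower in PMN-MDSC. It was 1 ± 0.128 in M-MDSC LD against 0.754 ± 0.0469 in M-MDSC Ctrl, and 3.19 ± 0.196 in PMN-MDSC LD against 3.98 ± 0.466 in PMN-MDSC Ctrl, with no overlap in either population. The log2 differences were 0.41 and -0.31 (exact p = 0.1 each, the smallest possible), and 0.05 over both (exact permutation adjusted p = 0.73). The difference between the populations' log2 changes was 0.71 (two-sided exact permutation test within population, 400 relabellings, p = 0.005, the smallest possible, and 0.015 adjusted over the 3 pairs), in a test added after the values were seen. With a replicate block and fewer relabellings, the exact permutation adjusted p was 0.0938. In that design 1 pair alone at the smallest possible p gets this value after adjustment over the 3 pairs, so it could not pass. The same holds for the block value of Psmb10 over Psmb7. By the same test Psmb8 over Psmb5 gave 0.38 (exact permutation adjusted p = 0.24), or 0.59 without PMN-MDSC LD library 2 (0.015), and Psmb10 over Psmb7 gave -0.24 (0.455).

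The constitutive partner Psmb6 was also measured. It read 212.4, 225 and 266.4 in PMN-MDSC LD, against 172.4, 130.1 and 154.8 in PMN-MDSC Ctrl, and rose there (0.62 ± 0.15, limma adjusted p = 0.0116), a larger log2 difference than that of Psmb9 (0.31). Without PMN-MDSC Ctrl library 2 the call of Psmb6 was lost (0.51, adjusted p = 0.0515). In M-MDSC, Psmb6 read 436.8, 440.7 and 451.2 in LD, against 434.5, 486.1 and 433.6 in Ctrl (-0.03, limma adjusted p = 0.988). The difference between these changes did not pass (-0.65 ± 0.21, limma adjusted p = 0.114). Psmb8 over Psmb5 showed no detectable change with LD averaged over both populations. It was 13.5 ± 1.35 in M-MDSC LD against 11.3 ± 0.379 in M-MDSC Ctrl and 16.1 ± 4.51 in PMN-MDSC LD against 17.5 ± 2.3 in PMN-MDSC Ctrl, a log2 difference of 0.06 over both (exact permutation adjusted p = 0.73). Within M-MDSC all LD ratios lay above all Ctrl ratios (0.25, exact p = 0.1, the smallest possible). Within PMN-MDSC the difference was -0.13 (exact p = 0.6). Psmb5 itself read 106.9, 92.7 and 151.4 in PMN-MDSC LD, against 90.8, 82.6 and 55.9 in PMN-MDSC Ctrl (0.61 ± 0.24, limma adjusted p = 0.106).

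**Figure D4:**
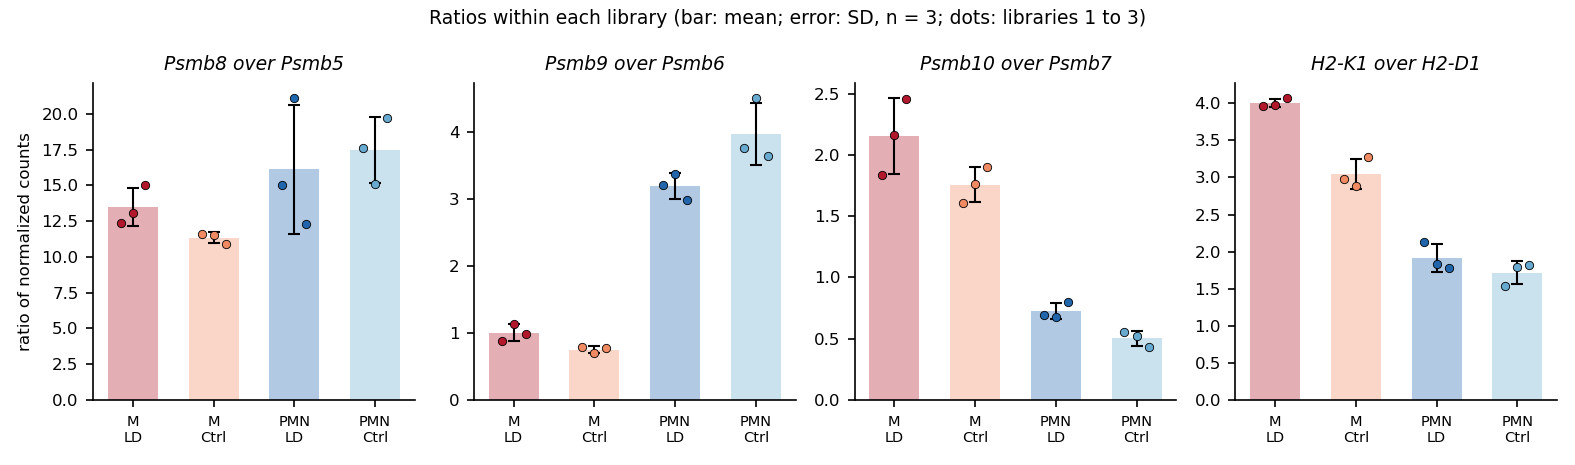
Ratios of normalized counts within each library for 3 immunoproteasome and constitutive subunit pairs and for the 2 heavy chains, by group (M: M-MDSC, PMN: PMN-MDSC), with bars at the mean, error bars of 1 SD (n = 3) and a point for each library. H2-K1 over H2-D1 is between 3.97 and 4.07 in M-MDSC LD, and Psmb9 over Psmb6 lies higher in M-MDSC LD but lower in PMN-MDSC LD than in the matching Ctrl group.

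M-MDSC and PMN-MDSC used the members at different levels, and the sign depended on the member. Psmb10 was 3.86-fold higher in M-MDSC than in PMN-MDSC of LD mice and 5.41-fold higher in Ctrl mice (log2 1.95 ± 0.18, limma adjusted p = 1.6e-07, and 2.43 ± 0.18, 1.4e-08). Nlrc5 was 2.17-fold higher in LD and 1.76-fold higher in Ctrl mice (1.12 ± 0.11, 2.0e-07, and 0.82, 5.8e-06). In the other direction, Tap2 (-1.37 and -1.32), H2-D1 (-1.17 and -1.29), Psmb9 (-0.75 and -0.82), Tap1 (-0.45 and -0.65) and B2m (-0.63 and -0.42) were lower in M-MDSC of LD and of Ctrl mice, with limma adjusted p of 2.5e-08 to 0.0136. H2-K1 was lower in M-MDSC of Ctrl mice (-0.46, limma adjusted p = 0.00173) and did not pass in LD mice (-0.1, 0.429). Tapbp passed in LD (-0.31, 0.0385) and not in Ctrl mice (-0.22, 0.132), and Psmb8 passed in Ctrl (0.44, 0.00804) and not in LD mice (0.22, 0.151). Tapbp in LD mice was lost without M-MDSC LD library 1 (adjusted p = 0.192), PMN-MDSC LD library 2 (0.0522) or PMN-MDSC LD library 3 (0.15), by edgeR (0.14) and with TMM scaling (0.094). B2m in Ctrl mice was lost without M-MDSC Ctrl library 1 (0.0889) or PMN-MDSC Ctrl library 1 (0.0793), and Psmb8 in LD mice passed by edgeR (0.0453). The counts were 2 members higher and 6 lower in LD mice, where 74.8% of all genes passed, 38.8% as higher and 36.1% as lower. In Ctrl mice they were 3 higher and 6 lower, where 75.6% of all genes passed, 38.8% as higher and 36.8% as lower. Most genes differed between these cell types, so the members' count is near the background.

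The scale matters here. Normalized counts summed to 8572575 to 9397397 in the M-MDSC libraries and to 13715662 to 15808125 in the PMN-MDSC libraries. Scaled to total reads, the median of all genes moved to 0.83 in LD and 0.69 in Ctrl mice, beside 0.1 and 0.06 with the authors' size factors, and the share of calls that were higher in M-MDSC was 73.6% in LD and 70.3% in Ctrl mice, beside 51.8% and 51.4%. On that scale Psmb8 passed in LD mice (0.95, adjusted p = 3.7e-06), H2-K1 (0.64), Tap1 (0.28) and Tapbp (0.42) were higher in M-MDSC LD, B2m did not pass (0.1 in LD and 0.21 in Ctrl mice), Psmb9 did not pass in LD (-0.02) or Ctrl mice (-0.19), and in Ctrl mice neither Tap1 (-0.02) nor H2-K1 (0.17) passed. Tap2 (-0.64) and H2-D1 (-0.44) were lower and Psmb10 (2.68) and Nlrc5 (1.85) higher in M-MDSC LD on both scales. Relative to the median gene, a scaling shifts nothing. B2m lay 0.73 below that median in LD mice with either, H2-D1 1.27 below it, and Psmb10 1.85 above it.

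Ratios free of scaling also separated the populations. H2-K1 over H2-D1 was 1.93-fold higher in M-MDSC over both treatments (exact permutation p = 0.005, the smallest that 400 relabellings allow), Psmb10 over Psmb7 was 3.21-fold higher and Psmb9 over Psmb6 was 0.245 times the PMN-MDSC value (exact permutation adjusted p = 0.0075 each). Psmb8 over Psmb5 was 0.75 times the PMN-MDSC value (adjusted p = 0.035), a call lost without any 1 of the M-MDSC Ctrl libraries or PMN-MDSC LD library 2 (exact permutation p = 0.05 each). The M-MDSC held relatively more Psmb10 and relatively less Psmb9 per constitutive partner.

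**Figure D5:**
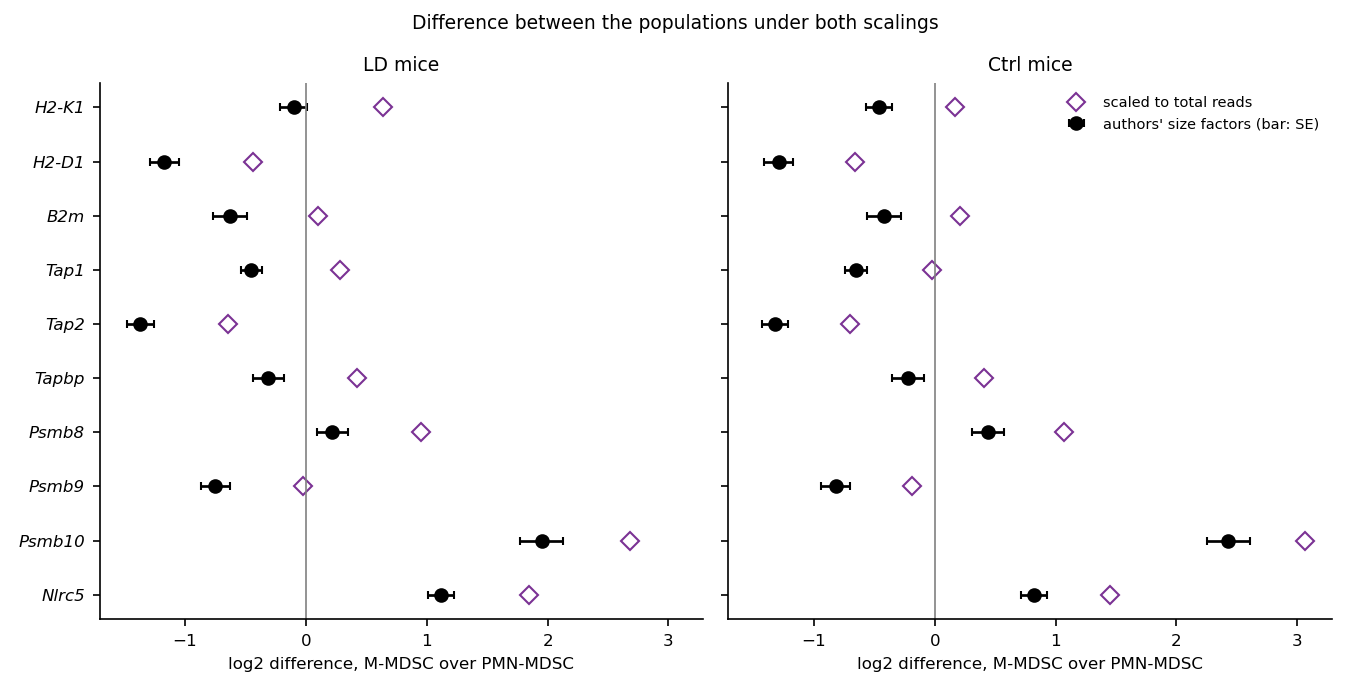
Log2 difference of each member, M-MDSC over PMN-MDSC, in LD mice (left) and Ctrl mice (right). Filled circles use the authors' size factors, with bars of 1 SE from limma, and diamonds use scaling to total reads. Psmb10 and Nlrc5 lie right of 0 and H2-D1 and Tap2 left of 0 in both panels with both scalings, while H2-K1, B2m, Tap1, Tapbp and Psmb9 lie at or near 0 or change sides.

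The rest of the pathway showed no common shift with LD, and its genes passed about as often as all genes. Of 91 listed genes present in the table, 75 entered the tests. In M-MDSC 3 rose and none fell, while 6 rose and 8 fell in PMN-MDSC. Of all genes, 3.01% passed in M-MDSC and 15.7% in PMN-MDSC. Their medians were -0.02 in M-MDSC and 0 in PMN-MDSC, beside -0.04 and -0.05 over all genes. Of 11 tested heavy chains of other class I and class Ib genes, H2-Q4 rose in M-MDSC. It read 1409.7, 1193 and 1111.3 in M-MDSC LD, against 616.1, 650.7 and 709.6 in M-MDSC Ctrl (0.9 ± 0.12, limma adjusted p = 6.8e-04), and 1592, 1244.4 and 1361.6 in PMN-MDSC LD, against 1391.4, 1599.7 and 1457.3 in PMN-MDSC Ctrl (-0.09, 0.645). Of its 50-base windows, 24.3% also occur in other genes, so its reads are uncertain. H2-T23, the Qa-1 heavy chain that presents leader peptides of other class I chains, did not overlap between LD and Ctrl in either population and passed in the average alone (0.24 ± 0.07, limma adjusted p = 0.0376), a call lost on leaving out any 1 of 8 of the 12 libraries (adjusted p up to 0.0943). In PMN-MDSC, H2-T10, a class Ib heavy chain, fell to 36.5, 67.7 and 40.7 in LD, against 67.3, 87.9 and 134.1 in Ctrl, where 1 library of each group overlapped (-0.98 ± 0.31, limma adjusted p = 0.0486). That call was lost on leaving out any 1 of 10 of the 12 libraries, with the highest adjusted p without PMN-MDSC Ctrl library 3 (-0.71, 0.211), and with a replicate block (0.0675). H2-Q10, another class Ib heavy chain, read 3954.9, 4653.9 and 4823.9 in PMN-MDSC LD, against 8711.7, 8689.1 and 8517.4 in PMN-MDSC Ctrl, and at most 22.4 in any M-MDSC library. All LD libraries were far below Ctrl, yet the difference of -0.95 ± 0.8 did not pass with the spread of all 4 groups (limma adjusted p = 0.448). It passed by edgeR (-0.98, adjusted p = 0.0191), with the PMN-MDSC groups fitted alone (2.5e-04) and without M-MDSC LD library 2 (0.0392).

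Of 9 proteasome activators and assembly factors, Psme1, a subunit of the interferon-inducible PA28 cap, rose in PMN-MDSC. It read 1721.8, 1482.6 and 1838.4 in LD, against 1282.3, 1125.9 and 1109.4 in Ctrl (0.52 ± 0.12, limma adjusted p = 0.0102). Its partner Psme2 did not pass in PMN-MDSC (0.24, 0.332) or M-MDSC (0.11, 0.914). Of 10 loading chaperones and translocon genes, limma called 0 in M-MDSC, with 1 under an unadjusted 0.05, and 0 in PMN-MDSC, with 4 under it. EdgeR and DESeq2 called 0 of them in M-MDSC and 1 each in PMN-MDSC. Of 8 peptide-trimming enzymes, limma, edgeR and DESeq2 called 0 in either population, with 1 in M-MDSC and 2 in PMN-MDSC under an unadjusted 0.05 by limma. Between populations, 6 of the 10 chaperone genes were higher in M-MDSC LD than in PMN-MDSC LD and none lower, beside 38.8% of all genes higher and 36.1% lower, among them Calr, Canx and Pdia3, partners of tapasin in the loading complex.

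The regulators were mixed. Irf1, an interferon-induced activator of class I genes, did not pass in M-MDSC (0, limma adjusted p = 1) or PMN-MDSC (-0.32, 0.129). Neither did Rfx5, Rfxap and Rfxank, the subunits of RFX, with log2 differences of -0.2 to 0.13. Irf7, an amplifier of type I interferon, rose in M-MDSC (0.42 ± 0.09, limma adjusted p = 0.0172) and in PMN-MDSC (0.48 ± 0.09, 0.0031). The M-MDSC call was lost without M-MDSC LD library 3 (adjusted p = 0.0631), M-MDSC Ctrl library 1 (0.0767) or M-MDSC Ctrl library 2 (0.0754). Socs1, a feedback inhibitor of interferon signalling, rose in M-MDSC (1.49 ± 0.35, limma adjusted p = 0.0318), a call lost on leaving out any 1 of 6 of the 12 libraries, with the highest adjusted p without M-MDSC LD library 1 (1.2, 0.14). Usp18, an inhibitor of type I interferon signalling, rose in PMN-MDSC (0.57 ± 0.14, limma adjusted p = 0.0134), a call lost without PMN-MDSC Ctrl library 2 (0.4, 0.0573). The NF-kappaB subunit gene Nfkb1 rose there too (0.27 ± 0.08, limma adjusted p = 0.042), a call lost on leaving out any 1 of 9 of the 12 libraries, by edgeR (0.0859) and with a replicate block (0.0565), with the highest adjusted p without PMN-MDSC Ctrl library 2 (0.19, 0.178). In PMN-MDSC the receptor genes Ifnar1 (-0.39, limma adjusted p = 0.00705) and Ifngr1 (-0.52, 0.0103) fell, as did Socs3, a feedback inhibitor of cytokine signalling (-1.38, 0.0017). Nfyb, an NF-Y subunit, rose there (0.58, 0.0165), and Ciita fell to 54.1, 51.5 and 58.9 in PMN-MDSC LD, against 120.4, 59.8 and 169.2 in PMN-MDSC Ctrl (-0.95 ± 0.3, 0.0417). The call of Ciita was lost on leaving out any 1 of 9 of the 12 libraries, with the highest adjusted p without PMN-MDSC Ctrl library 3 (-0.62, 0.189), and that of Nfyb without PMN-MDSC LD library 2 (0.0623) or PMN-MDSC Ctrl library 1 (0.0518). None of 6 interferon genes reached the minimum level.

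Of the myeloid receptors that bind class I or belong to the same family, Lilrb3, Lilrb4 and Gp49a all fell in PMN-MDSC. Lilrb4 read 8334.4, 8397.3 and 7980.5 in PMN-MDSC LD, against 11433.3, 10977.8 and 16101 in PMN-MDSC Ctrl (-0.62 ± 0.16, limma adjusted p = 0.0207), and Lilrb3 (-0.52 ± 0.09, 0.00178) and Gp49a (-0.79 ± 0.23, 0.0305) were lower too, where 8.51% of all genes fell. In M-MDSC their differences were -0.3 to -0.15 and none passed. Lilrb4 and Gp49a are close copies, so their reads may be shared. Without PMN-MDSC Ctrl library 3 neither Lilrb4 (-0.44, adjusted p = 0.1) nor Gp49a (-0.59, 0.147) passed. Lilrb4 was also lost without PMN-MDSC LD library 3 (0.0592), and Gp49a without PMN-MDSC LD library 2 (0.079), PMN-MDSC LD library 3 (0.0756) or PMN-MDSC Ctrl library 1 (0.055). Between populations, 13 of 18 genes of interferon receptors, JAKs, STATs and IRFs were lower in M-MDSC LD than in PMN-MDSC LD, with Irf1 at -1.56 (limma adjusted p = 8.9e-08), and 4 were higher, beside 36.1% of all genes lower and 38.8% higher. Of 8 regulators of the SXY module and class II, 2 were higher in M-MDSC LD and 3 lower, beside the same shares of all genes. Ciita (4.39 ± 0.3, limma adjusted p = 5.1e-09) and Rfx5 (1.07, 2.3e-04) were higher. Creb1, Nfyb and the RFX subunit Rfxap were lower.

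Among the members, variation between libraries within a population had 1 exception. After each population's mean was removed, the other 9 members had Pearson r of 0.5 to 0.96 with each other over the 12 libraries, and Nlrc5 had r of -0.37 to 0.18 with them. These values share the treatment contrast and the size factors and are given as a description. The genes most like H2-K1 on this measure were Tap1 (0.96), Raly (0.92), Marcksl1 (0.92), Gfi1 (0.91) and Lhfpl2 (0.9), and those most like Nlrc5 were Helb (0.9), Ctdp1 (0.88), Edc4 (0.86), Nfrkb (0.85) and Impdh1 (0.84).

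Some other cell markers also changed with LD, and not alike in both populations. Of 7 macrophage markers, 3 rose in M-MDSC, with summed levels of 413.5 to 486.1 in LD and 172.8 to 220.1 in Ctrl. In PMN-MDSC limma called no macrophage marker and no cell division gene. Of 9 neutrophil markers, 4 rose in M-MDSC and 1 rose and 2 fell in PMN-MDSC. Lymphocyte markers were mixed. Of 9 B cell markers, 3 were tested, none passed in M-MDSC, and in PMN-MDSC Cd22 rose and Cd79b fell. Those calls were lost on leaving out any 1 of 5 and of 3 of the PMN-MDSC libraries, with adjusted p up to 0.103 and 0.0712. Below the tested level, Cd79a and Ms4a1 were at 0 in all 3 M-MDSC LD libraries and at 1.9 to 9.5 in M-MDSC Ctrl, while Cd79b read 32.6, 62 and 30.5 in M-MDSC LD and 38.9, 46.9 and 38.7 in M-MDSC Ctrl. Of 10 T cell markers, 2 were tested and limma called none in either population, and Cd3e was at 0 in all M-MDSC LD libraries and at 0, 1.9 and 0 in M-MDSC Ctrl. Of 9 natural killer cell markers, 2 were tested. In M-MDSC limma called none, and edgeR and DESeq2 1 each. In PMN-MDSC Klrk1 fell. Natural killer marker sums were 116.2 to 189.8 in M-MDSC LD and 53.8 to 113.9 in M-MDSC Ctrl. In PMN-MDSC they were 7 to 16.2 in LD and 21.1 to 36.7 in Ctrl. Igj, the joining chain of secreted antibodies and 1 of 7 plasma cell markers, read 1.4, 0 and 2 in M-MDSC LD, against 78.5, 333.9 and 140.2 in M-MDSC Ctrl, and fell in both populations (limma adjusted p = 0.00181 in M-MDSC and 0.0237 in PMN-MDSC). In PMN-MDSC its call was lost by edgeR (adjusted p = 0.0731) and DESeq2 (0.131) and without PMN-MDSC LD library 2 (0.0762) or 3 (0.0839) or PMN-MDSC Ctrl library 2 (0.0884) or 3 (0.0613). Of 8 dendritic cell markers, 5 were tested, and Itgax alone passed in each population. It rose in M-MDSC (0.88 ± 0.16, limma adjusted p = 0.00611). In PMN-MDSC it fell (-0.63 ± 0.16, limma adjusted p = 0.0156, or 0.0601 without PMN-MDSC Ctrl library 2). The difference between these changes was 1.52 ± 0.22 (limma adjusted p = 0.00561). Of the 5, 2 were positive in M-MDSC (median -0.22) and 1 in PMN-MDSC (median -0.63). Itgax was lower in M-MDSC than in PMN-MDSC of LD and of Ctrl mice. The summed level of 9 B cell markers was 193.4 to 279.8 in M-MDSC LD and 273.2 to 403.8 in M-MDSC Ctrl, and 386.8 to 925.5 in PMN-MDSC LD and 510.8 to 686.5 in PMN-MDSC Ctrl. Summed levels of 10 cell division genes were 4039.2 to 13542.2 in M-MDSC LD and 1191.3 to 1520.8 in M-MDSC Ctrl, and 2175.4 to 10863.7 in PMN-MDSC LD and 2885.9 to 3772.4 in PMN-MDSC Ctrl. The part of the macrophage, neutrophil, dendritic, plasma, natural killer, progenitor and dividing cells in these results was not tested.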

How the data were processed

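Libraries were made from 100 ng of total RNA after ribosomal RNA depletion, from cells sorted at over 99% purity, per the labels' protocols. The authors deposited 1 table of signal values, read counts divided by a size factor per sample. All values (100%) were whole multiples of 1 read within 0.001 reads, so whole reads were recovered. The submitters' processing notes name mm10, STAR 2.5.3a, HTSeq 0.6.1 and DESeq2, without roles. Strand and annotation are not given in the sources used here, and 3377 genes had no reads.

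Log2(normalized count + 1) was fitted with limma 3.58.1 (R 4.3.3) as 4 group means with a trended empirical Bayes spread, on genes with a mean of at least 10. P-values are two-sided. On this scale changes of low genes are understated. Ratios were tested by exact permutation in Python 3.11.15 (numpy 2.4.6). Alternatives were pseudocounts of 0.5 and 8, no minimum or a mean of 50, TMM and upper-quartile scaling, edgeR 4.0.16, DESeq2 1.42.0, a replicate block, the compared groups fitted alone and each library left out. Scaling to total reads, leaving out both LD libraries numbered 1 the ISRE consensus and the test of the difference of ratio changes were added after seeing the data. Reads carry no molecular identifiers. Named genes are all members, the constitutive subunits, Psme1, Psme2, Irf1, the RFX genes and Ciita, up to 3 called genes of each pathway list in a comparison, and the 5 genes most like H2-K1 and Nlrc5. 1 gene covered by this rule is not reported here. H2-Q10, Ifngr1, Usp18 and single cell markers were named after their values were seen. The members and lists were chosen with earlier results of these data known. The scripts were tested on simulated data. Ly6g was not analysed here.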

Additional observations from a re-analysis of the deposited data

Results flagged for a closer look

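The LD change of 2 pathway genes and of several cell markers differed between the populations by the interaction term of limma. Of the markers, Itgax, Csf1r, Camp and Prc1 were called with a higher change in M-MDSC, and Ly6c2 with a lower one. Itgax is the marker described here. For H2-Q4, a class Ib heavy chain, the M-MDSC change minus the PMN-MDSC change was 0.99 ± 0.16 on the log2 scale (limma adjusted p = 0.00826). All 3 M-MDSC LD libraries were above the M-MDSC Ctrl libraries and the PMN-MDSC groups overlapped, and its reads are uncertain between close copies. For Socs3 it was 1.33 ± 0.32 (limma adjusted p = 0.0482), and this was lost by edgeR (0.0515), with a replicate block (0.0533) and on leaving out most single libraries, with adjusted p up to 0.121. Socs3 read 710.7, 923.8 and 1230.5 in M-MDSC LD, against 1206.2, 878.4 and 847.6 in M-MDSC Ctrl, and 4195.6, 2368.1 and 2187.6 in PMN-MDSC LD, against 7425.3, 6634.2 and 7725.7 in PMN-MDSC Ctrl. For Itgax, listed as a dendritic cell marker though lower in M-MDSC than in PMN-MDSC, it was 1.52 ± 0.22 (limma adjusted p = 0.00561). Itgax read 1264.8, 1104.7 and 1070.9 in M-MDSC LD, against 598.6, 504.3 and 786.5 in M-MDSC Ctrl, and 2613.1, 3847.8 and 3540.8 in PMN-MDSC LD, against 5003.6, 5443.2 and 4858.9 in PMN-MDSC Ctrl.

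The LD change of Psmb9 over Psmb6 also differed between the populations, by 0.71 on the log2 scale (M-MDSC minus PMN-MDSC, exact permutation adjusted p = 0.015 over 3 pairs). All 3 LD libraries were above the Ctrl libraries in M-MDSC and all 3 below them in PMN-MDSC. The test was added after these values were seen.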

How the results depend on the processing

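Counts of members past the threshold moved with the processing. They are given without the share of all genes in each setting, so a general move in calls cannot be told apart. In M-MDSC (1 member as reported) the count was 2 by edgeR and by DESeq2, 3 with scaling to total reads, 2 without both LD libraries numbered 1, and 1 to 2 when single libraries were left out. In PMN-MDSC (4 as reported) it was 2 without a minimum level, 2 with the groups compared fitted alone, and 0 to 4 when single libraries were left out. Averaged over both populations (5 as reported) it was 8 without both LD libraries numbered 1 and 3 to 7 when single libraries were left out. The difference of the changes gave 0 members throughout.

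Signs that turned were small or came from scaling. With single libraries left out, the averaged change of Nlrc5 ran from -0.03 to 0.06 (-0.03 and -0.01 where it turned), and the difference between the populations' changes from -0.01 to 0.26 for H2-D1, -0.11 to 0.04 for Tap2 (0.02 to 0.04 where it turned), -0.19 to 0.04 for Tapbp and -0.02 to 0.16 for Psmb9. For the same difference, Tap2 was 0.02 by edgeR and 0.06 with scaling to total reads, and Tapbp was 0.01 with that scaling. Scaling to total reads turned M-MDSC against PMN-MDSC in LD mice for H2-K1 (0.64), B2m (0.1), Tap1 (0.28), Tapbp (0.42), Rfxap (0.2) and Ifnar1 (0.2), and in Ctrl mice for H2-K1 (0.17), B2m (0.21) and Tapbp (0.41), by shifting all genes alike. H2-K1 in LD mice was 0.02 without both LD libraries numbered 1. For the log2 ratio of Psmb8 over Psmb5, LD against Ctrl ran from -0.05 to 0.14 over single libraries left out, M-MDSC against PMN-MDSC from -0.5 to -0.31, and the difference of the LD changes from 0.21 to 0.59.

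With a replicate block, Psmb10 over Psmb7 (0.4, exact permutation adjusted p = 0.0938), H2-K1 over H2-D1 (0.28, 0.0625) and, between populations, Psmb8 over Psmb5 (-0.42, 0.0938) no longer passed, nor did the difference of the LD changes of Psmb9 over Psmb6 (0.71, 0.0938), in a design with fewer relabellings. The block also lost H2-K1 in PMN-MDSC (limma adjusted p = 0.0591) and changed no other call of a member. Deviations of same-numbered libraries correlated by -0.05 to 0 between LD and Ctrl, so the numbers were not taken to pair LD with Ctrl. Between M-MDSC and PMN-MDSC they correlated by 0.07 to 0.21 in LD and -0.04 to 0.13 in Ctrl, and the labels do not say whether both populations of a number came from 1 mouse. The cause of the other moves was not tested.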
